A study of Homo sapiens with 12 samples.

Results

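Ishikawa cells, an established line from a human endometrial adenocarcinoma, were compared after 8 h with estradiol (E2, 10 nM) and after 8 h with the vehicle DMSO, over both knockdown arms together. One arm carried a control hairpin (shNC) and the other a hairpin against ARID1A (shARID1A), a subunit of SWI/SNF, the ATP-driven complex that moves nucleosomes. The comparison took 8 of the 12 libraries of the series, 4 with E2 and 4 with DMSO, so that each arm gave 2 libraries per treatment, and the arm entered the fit as a block. The other 4 libraries came from cells given E2 (10 nM) together with the receptor antagonist fulvestrant (100 nM), and their levels are given beside the members of the comparison where they bear on them. All cells had been held for at least 4 days in medium without phenol red and with serum treated with charcoal and dextran, which removes steroids. The labels give the line, hairpin and treatment only, so that neither the number of hairpins or clones per arm nor the independence of the cultures is known, and p-values measure the spread between these libraries, which may be technical.

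Estradiol enters the cell and binds estrogen receptor alpha, a ligand-activated transcription factor encoded by ESR1. The bound receptor dimerises and acts at estrogen response elements, or through other factors bound to DNA, with coactivators of the NCOA family. In the endometrium the hormone drives growth of the glands and induces the progesterone receptor, and in Ishikawa cells induction of alkaline phosphatase is a classical readout. Fulvestrant blocks the receptor and promotes its degradation.

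No gene passed the test of E2 against DMSO over both arms. Of 16570 genes tested, edgeR's quasi-likelihood test called 0 at an adjusted p under 0.05 (percent called 0), and the smallest adjusted p was 0.961. At an unadjusted p under 0.05 there were 625 genes (3.77% of those tested), 293 higher with E2 (1.77%) and 332 lower (2%), and DESeq2 called 0 with 491 at an unadjusted p under 0.05. A fit with the replicate number as a block, an assumption since the labels give no pairing, also gave 0. A fit with a mean per group called 1 gene, the pseudogene GNG5P2, which is described with the difference between arms. The median log2 fold change of all genes was 0.00175, and the precision was high for genes that averaged 5 CPM or more (CPM being counts scaled to a common library size with TMM factors). For 10304 of these 10333 genes the 95% interval of the difference lay inside 1.5-fold in either direction, and for 8973 (86.8%) it lay inside 1.25-fold. Among the 6237 genes with lower levels only 1384 (22.2%) had an interval inside 1.5-fold, so that a change of that size lies within the error there.

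The libraries were alike in depth and separated by arm. They held 28753202 to 38589497 counts, at which 3 counts correspond to 0.0777 to 0.104 CPM. The first principal component of the 8 libraries carried 72.8% of the variance and parted the arms, while the next components carried 8.22% and 4.3%. The target of the hairpin checked the labels: ARID1A had 115 and 117 CPM with DMSO and 122.6 and 123 CPM with E2 in shNC, against 57 and 61.8 CPM with DMSO and 56.7 and 56.9 CPM with E2 in shARID1A. Epithelial markers were present, with 11 of 18 at 1 CPM or more on average, and their summed level was 1819 to 1998 CPM with DMSO and 1846 to 2009 CPM with E2. Of 15 endometrial gland genes, 6 had 1 CPM or more on average, and the summed level of the 15 was 70.6 to 89 CPM. EMX2, SPP1 and TFF3 of that list had 0 counts in all 8 libraries. So did the immune markers CD3E, CD4, CD8A, MS4A1, TYROBP and CD163, the stromal marker THY1 and the endothelial markers KDR and EMCN. At 1 CPM or more on average were 3 of 9 stromal, 1 of 12 immune and 1 of 6 endothelial markers. In bulk RNA, fewer cells of a kind and less RNA per cell cannot be told apart.

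The receptors came first among the genes of the pathway. ESR1 (chromosome 6, 151977826 to 152450754, hg19) was barely detected. It had 17 and 24 counts with DMSO and 34 and 11 with E2 in shNC, and 22 and 21 counts with DMSO and 12 and 24 with E2 in shARID1A, or at most 1.09 CPM. The groups overlapped, and the log2 fold change was -0.18 (SE 0.389, 95% interval -0.98 to 0.62). ESR2, which encodes estrogen receptor beta, had 0 to 9 counts per library and was too low to test. PGR, the progesterone receptor gene, had 0 counts in all 8 libraries, which at 3 counts allows at most 0.0777 to 0.104 CPM per library, counting error only. Coregulators were well expressed without a call: NCOA1, a receptor coactivator, had 18.7 to 23.8 CPM over the 8 libraries and a log2 fold change of -0.15 (SE 0.0806, unadjusted p = 0.0674 in edgeR's quasi-likelihood test). Of the 22 nuclear receptor and coregulator genes tested, 0 passed at either an adjusted or an unadjusted p under 0.05, and their median log2 fold change was -0.014, beside 0.00175 for all genes.

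No classical estrogen target passed the test. The list of estrogen response genes had 45 names, of which 37 were in the table and 29 passed the filter on low counts. None of the 29 passed at an adjusted or an unadjusted p under 0.05, against 3.77% of all genes at the latter. Their median log2 fold change was 0.0245, with 19 above and 10 below 0 and a range of -0.23 to 0.225. The 95% interval lay inside 1.5-fold for 24 of the 29 and inside 2-fold for 28.

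GREB1 (chromosome 2, 11682816 to 11782914), a coactivator of the receptor and one of its best known targets, had 5.2 and 4.22 CPM with DMSO and 5.53 and 7.26 CPM with E2 in shNC. In shARID1A it had 5.69 and 6.31 CPM with DMSO and 5.73 and 5.31 CPM with E2. The E2 libraries were above the DMSO libraries in shNC only, and the groups overlapped in shARID1A. The common log2 fold change was 0.15 (SE 0.147), a ratio of 1.11 with a 95% interval of 0.904 to 1.37. Its effect was 0.44 in shNC and -0.12 in shARID1A on the log2 scale, a difference of -0.57 (SE 0.279, adjusted p = 0.773 in edgeR's test). ALPP, the placental alkaline phosphatase gene, had 68.4, 57.2, 81.5 and 60.7 CPM in the 2 DMSO and 2 E2 libraries of shNC and 118, 109.6, 104 and 113 CPM in those of shARID1A. These groups overlapped in both arms, and the ratio was 1.03 with an interval of 0.929 to 1.14. It has close paralogs, so that its reads may be shared.

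SGK1, a serum- and hormone-regulated kinase of ion transport, overlapped between treatments in shNC, at 152 and 166 CPM with DMSO and 157 and 159.7 CPM with E2 in shNC. It had 211 and 213 CPM with DMSO and 200.1 and 202 CPM with E2 in shARID1A, where both E2 libraries lay below both DMSO libraries. Its common log2 fold change was -0.04 (SE 0.0431). The related kinase gene SGK3, an estrogen target in breast cells, had 2.58 and 2.7 CPM with DMSO and 4.15 and 3.83 CPM with E2 in shNC. In shARID1A it had 3.9 and 3.14 CPM with DMSO and 3.07 and 3.33 CPM with E2. It was thus apart in shNC alone, and neither the common effect (0.22, SE 0.178) nor the difference between arms (-0.73, SE 0.339, adjusted p = 0.761 in edgeR's test) was called. CTSD, the lysosomal protease cathepsin D, had 194 to 232 CPM over the 8 libraries and a ratio of 1.04 (95% interval 0.97 to 1.11). MYBL1, a MYB family transcription factor, had 17.4 to 26.3 CPM and a ratio of 0.941 (0.844 to 1.05).

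**Figure D1:**
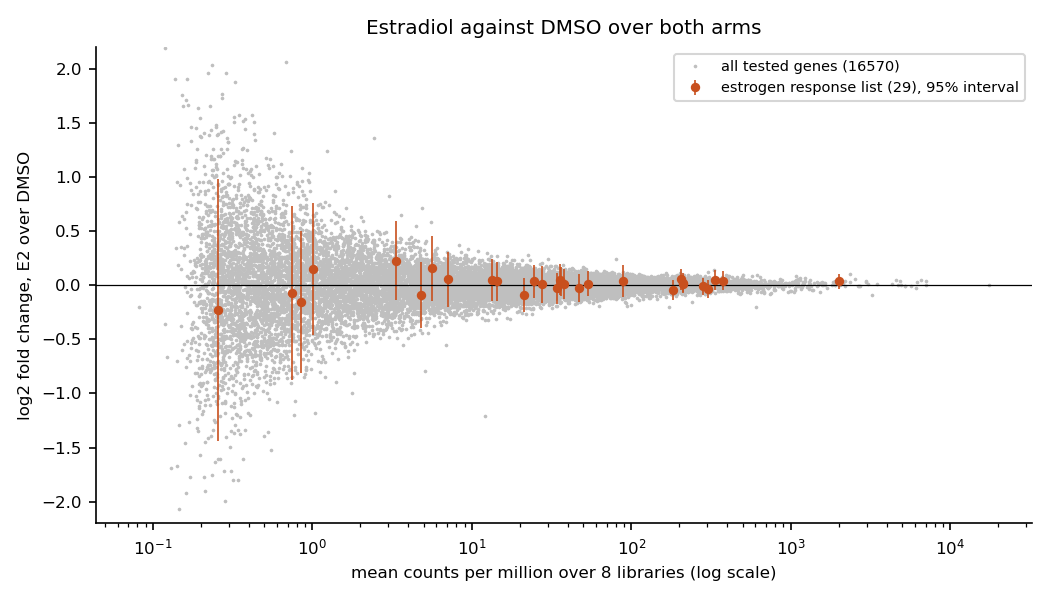
Log2 fold change of E2 over DMSO for each tested gene against its mean CPM over the 8 libraries (log scale), with the 29 tested estrogen response genes and their 95% intervals in orange. The estrogen response genes lie between -0.23 and 0.225, and 8 of the 16570 genes fall outside the plotted range.

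No gene of the lists for hypoxia and glycolysis or for sterol and fatty acid synthesis was called over both arms. In the hypoxia and glycolysis list 23 of 30 members were below 0, beside 8148 of all 16570 genes. The median was -0.0585, and 5 members were lower at an unadjusted p under 0.05 (2% of all genes were lower at that p). By arm, 6 of 30 members were above 0 in shNC (median -0.0888) and 14 of 30 in shARID1A (median -0.0177). Of all 16570 genes, 8331 and 8411 were above 0 in these arms. The median difference between arms was 0.0822 for the list, and without the replicate block 0 members were called for it. NDRG1, a stress-induced gene that serves as a hypoxia marker, had 494 and 489 CPM with DMSO and 346 and 419 CPM with E2 in shNC. It had 762 and 824 CPM with DMSO and 668 and 856 CPM with E2 in shARID1A, where the groups overlapped. The common log2 fold change was -0.20 (SE 0.0628, unadjusted p = 0.00293 in edgeR's test, not called). Without the second E2 library of shARID1A it was called, at -0.32 (adjusted p = 0.00929 in edgeR's test). Within shNC alone NDRG1 was not called without the replicate block. With that assumed block it fell by 0.37 there (adjusted p = 6.27e-05 in edgeR's test). The gene of the carbonic anhydrase CA9, a membrane enzyme induced by hypoxia, had 1.06 and 0.979 CPM with DMSO and 0.128 and 0.232 CPM with E2 in shNC, against 0.794 and 1.52 with DMSO and 0.352 and 1.11 CPM with E2 in shARID1A. Its common effect was -1.20 (SE 0.401), on few counts. ERO1L, an oxidase of protein folding, was lower in each E2 library than in each DMSO library of its arm (log2 fold change -0.16, SE 0.0622), as 2.29% of all genes were.

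IGFBP3, which encodes a binding protein for insulin-like growth factors, also had both E2 libraries below both DMSO libraries in shNC alone. It had 171 and 187 CPM with DMSO and 132 and 145 CPM with E2 in shNC, and 176 and 203 CPM with DMSO and 166 and 202 CPM with E2 in shARID1A. The common log2 fold change was -0.20 (SE 0.0636). Without the replicate block IGFBP3 was called neither within shNC nor for the difference between arms. With that assumed block it fell by 0.37 within shNC (adjusted p = 1.15e-05 in edgeR's test) with a difference of 0.32 between arms (adjusted p = 0.0039). In shNC with fulvestrant added, IGFBP3 had 142 and 153 CPM and NDRG1 409.5 and 450.3 CPM. Both fulvestrant libraries thus lay below both DMSO libraries for each gene.

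FASN, the fatty acid synthase gene, was among the few genes with a called difference on addition of fulvestrant. It had 2792 and 2482 CPM with DMSO and 2992 and 2777 CPM with E2 in shNC, and 1903 and 1931 CPM with DMSO and 1946 and 2102 CPM with E2 in shARID1A. The E2 libraries were above those of DMSO in shARID1A and overlapped them in shNC, and the common effect was 0.10 (SE 0.0365, unadjusted p = 0.00805 in edgeR's test, not called). Within shNC each E2 library was above the DMSO library of the same number, and with the assumed replicate block FASN rose by 0.13 (SE 0.025, adjusted p = 0.0127 in edgeR's test). Without that block FASN was not called within shNC. With fulvestrant FASN had 2504 and 2407 CPM in shNC and 1751 and 1698 CPM in shARID1A, a log2 change of -0.23 from E2 alone (adjusted p = 0.000408 in edgeR's test). That comparison called 33 of 16607 genes (0.199%) and shares the E2 libraries with the one described here. Its count was 445 with DESeq2, 1 without the first E2 library of shNC and 493 without the second. The other listed genes it called were TRIB3, a stress-induced pseudokinase (-0.24 with fulvestrant, 0.10 with E2), the keratin KRT7 (-0.18 and 0.05), the mucin MUC1 (-0.23 and 0.08) and the cytokinesis gene ANLN (0.22 and -0.09). An error in the shared E2 libraries enters the E2 and the fulvestrant change with opposite signs. Opposite signs are thus favoured without any effect, and those of FASN and these genes are a description only. Over all 28 cholesterol and fatty acid synthesis genes tested, 18 were above 0 with E2 against DMSO, and the median was 0.0247 with 0 calls.

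**Figure D2:**
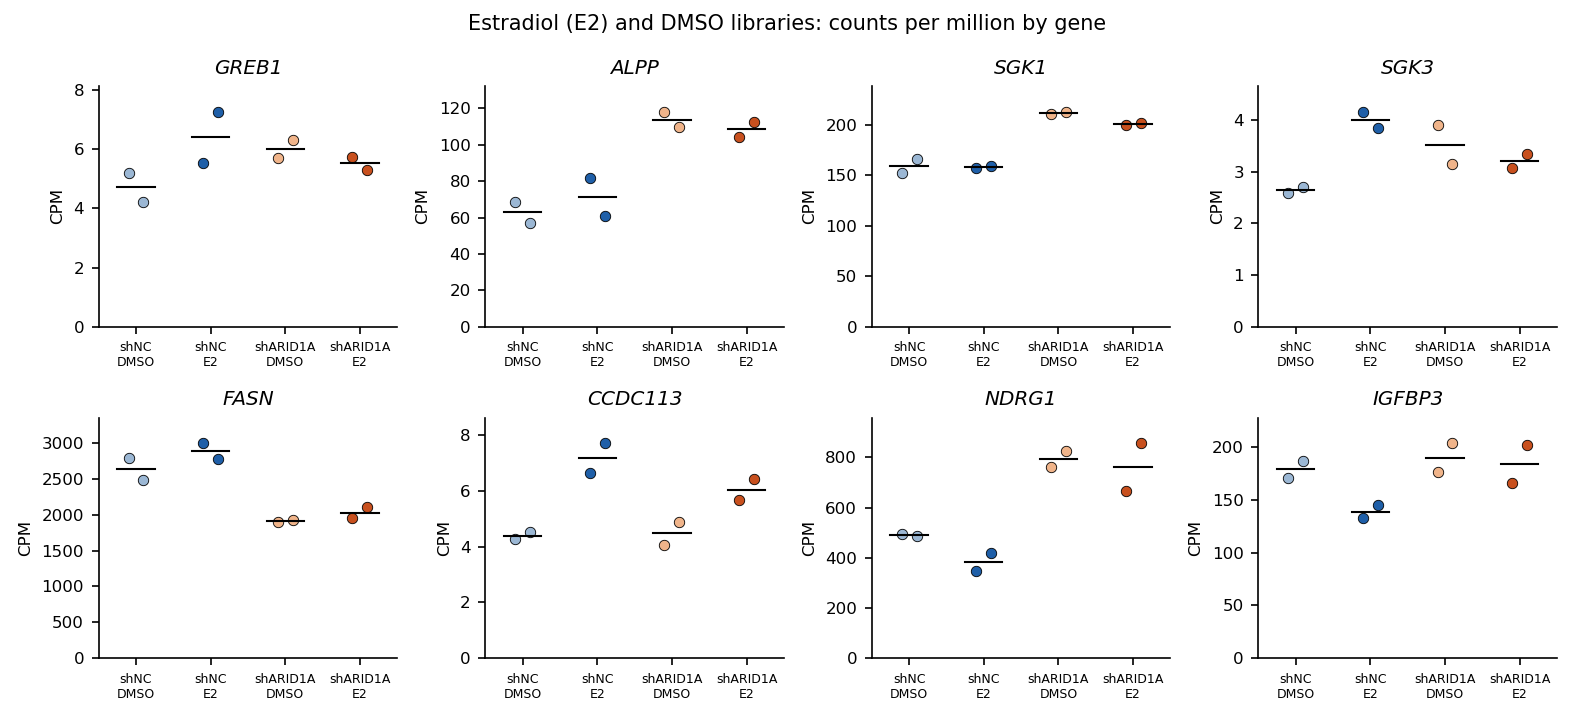
CPM of 8 genes in the 2 DMSO and 2 E2 libraries of each arm, where points are libraries and lines group means and each axis starts at 0. For GREB1, SGK3, NDRG1 and IGFBP3 the DMSO and E2 libraries are apart in shNC and overlap in shARID1A, and CCDC113 is higher with E2 in both arms.

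Growth genes gave no call either. In the mitosis list 19 of 24 members were below 0 (median -0.0328), where 8148 of all 16570 genes were. Beside 2% of all genes, 2 members were lower at an unadjusted p under 0.05. These were MKI67, the proliferation antigen Ki-67, and CENPE, a kinetochore motor. MKI67 had 70.7 and 77.3 CPM with DMSO and 64.7 and 72.7 CPM with E2 in shNC, and 59.8 and 60.5 CPM with DMSO and 50.4 and 47.3 CPM with E2 in shARID1A. The shNC groups overlapped and the shARID1A groups did not. The common effect was -0.20 (SE 0.0595) for MKI67 and -0.26 (SE 0.0892) for CENPE. With the assumed replicate block within shARID1A they fell by 0.30 (adjusted p = 0.0179) and 0.50 (adjusted p = 0.0223 in edgeR's test). Without that block neither was called within shARID1A. The G1/S and replication list was even, with 16 of 32 members above 0 and a median of 0.00109. In the ribosome biogenesis list 20 of 30 were below 0 (median -0.014). Among them were UTP15 and WDR12, factors of ribosomal RNA maturation and large subunit assembly, at -0.18 and -0.14. Each E2 library of these genes was below each DMSO library of its arm, as for 2.29% of all genes.

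Signalling lists were spread around 0, and 8422 of all 16570 genes were above 0. Immediate early genes, which respond within minutes of a stimulus and were sampled here at 8 h, had 9 of 15 members above 0 and a median of 0.0232. ZFP36, an RNA-binding protein that destabilises cytokine transcripts, had 12.7 and 13.6 CPM with DMSO and 15.1 and 17.4 CPM with E2 in shNC but overlapped in shARID1A (common effect 0.20, SE 0.0916). Growth factor and MAPK feedback genes had 13 of 24 above 0 and a median of 0.00387. Interferon-stimulated genes had 11 of 16 above 0 (median 0.0577), led by IFIT5 at -0.21 (SE 0.0766) and IFI27, an interferon alpha-inducible gene with low counts here, at 0.72 (SE 0.284). NF-kB genes had 12 of 17 above 0 (median 0.0429), with the subunit gene RELB at 0.15 (SE 0.0669) and E2 above DMSO libraries in both arms. Among p53 targets 11 of 17 were above 0, and TNFRSF10B, a death receptor for TRAIL, had 215 and 208 CPM with DMSO and 227 and 226 CPM with E2 in shNC, and 175 and 176 CPM with DMSO and 189 and 195 CPM with E2 in shARID1A. These groups did not overlap in either arm, yet the ratio was only 1.08 (95% interval 1.02 to 1.15, unadjusted p = 0.00986 in edgeR's test), and 2.12% of all genes had E2 libraries above DMSO libraries in each arm. The other lists (TGF-beta and BMP, WNT and Notch, retinoid, YAP/TEAD, matrix, transporter, IGF axis, channel, chaperone, amino acid response, epithelial, gland, mitochondrial and histone genes) had medians from -0.0207 to 0.0674 and 0 calls. In the marker lists for stromal, immune and endothelial cells 5, 1 and 1 members were tested, with medians of -0.019, -0.196 and 0.0497.

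The genes named here were chosen after their values were seen. ENSG00000196972.6, with group means of at most 0.679 CPM, HSPA8P9, CCDC113 and EIF5AP4 had the smallest p-values over both arms. KRT17, RUSC2 and TMEM37 had small p-values among genes of at least 5 CPM with E2 and DMSO libraries apart in each arm. Such separation was thus part of their choice. Of all genes, 2.12% had E2 libraries above DMSO libraries in each arm and 2.29% below. CCDC113 (chromosome 16, 58265061 to 58296444), a protein of the centriolar satellites and cilia, had 4.25 and 4.53 CPM with DMSO and 6.65 and 7.7 CPM with E2 in shNC. In shARID1A it had 4.07 and 4.9 CPM with DMSO and 5.66 and 6.42 CPM with E2. Both E2 libraries were above both DMSO libraries in each arm, and the ratio was 1.5 (95% interval 1.23 to 1.82, unadjusted p = 0.000228, adjusted p = 0.961 in edgeR's quasi-likelihood test). With fulvestrant added it had 4.65 and 5.34 CPM in shNC and 4.3 and 4.9 CPM in shARID1A. CCDC113 was chosen on the same E2 libraries, so that these levels are a description with no test. KRT17, a keratin of stressed and basal epithelium, had a ratio of 1.1 (1.04 to 1.17) with E2 above DMSO libraries in both arms. With the assumed replicate block within shNC it rose by 0.19 (adjusted p = 0.0169 in edgeR's test), and without that block KRT17 was not called there. It overlaps JUP in these annotations. RUSC2, a vesicle traffic adaptor, had 0.34 (SE 0.107), and TMEM37, a calcium channel gamma-like protein, -0.32 (SE 0.102) on the log2 scale. The pseudogenes HSPA8P9 (-0.99) and EIF5AP4 (-0.80) had unadjusted p-values of 0.000222 and 0.000232, and their reads may belong to the parent genes.

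**Figure D3:**
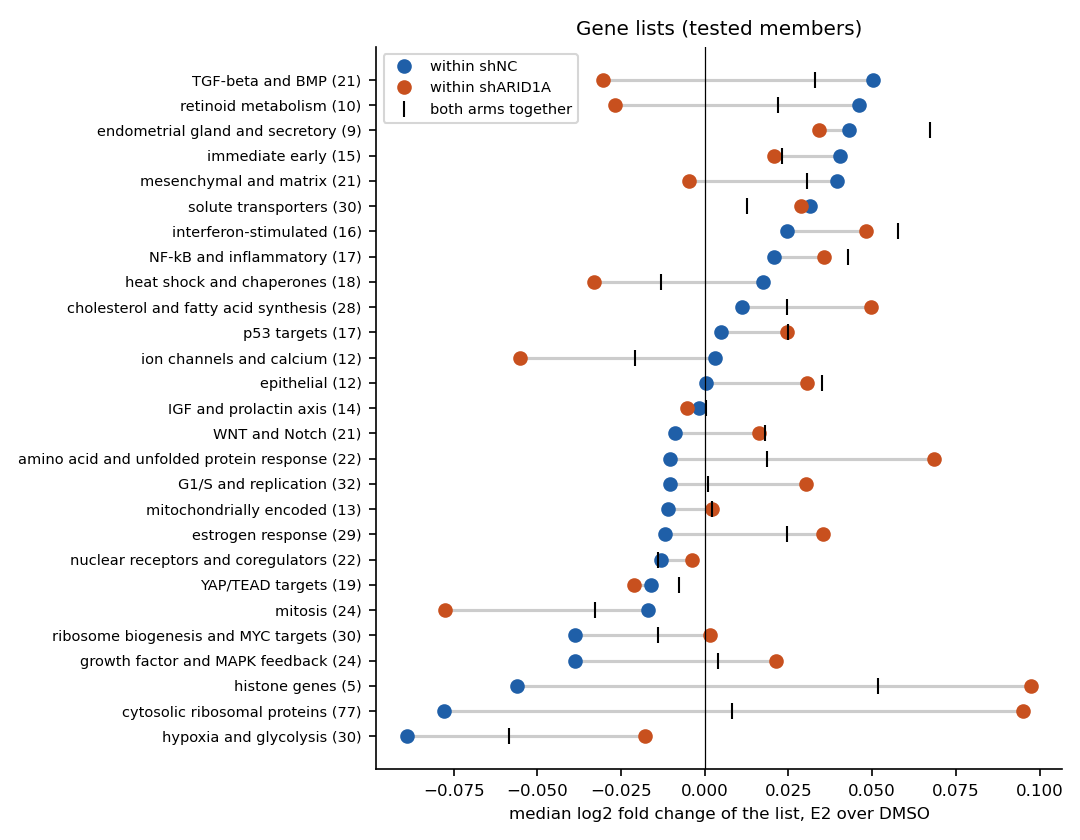
Median log2 fold change of E2 over DMSO for the members of each list except the stromal, immune and endothelial markers, which are not drawn, within shNC (blue), within shARID1A (orange) and over both arms (black tick), with the number of tested members in brackets. The drawn medians lie between -0.0888 and 0.0974, and the cytosolic ribosomal protein genes are at -0.0778 in shNC and 0.0951 in shARID1A.

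Whether the E2 effect was common to both arms was tested directly. Within shNC 3 of 16570 genes were called (0.0181%): the pseudogene GNG5P2 was higher, and CHCHD10 and ENSG00000206417.4 were lower. Within shARID1A 7 were called (0.0422%): RPL37, MT-ND3, RP11-543P15.1, RP11-314A20.1 and the pseudogenes FTH1P20 and RPL39P3 were higher, and EIF5AP4 was lower. The difference between arms was called for 19 genes (0.115%), of which 18 were higher in shARID1A (0.109%) and GNG5P2 was lower. The labels do not say what a shared replicate number means. Same-numbered DMSO and E2 libraries deviated together weakly (correlation 0.291 in shNC and 0.131 in shARID1A), but E2 and fulvestrant libraries of shARID1A did not (-0.183). With the number as a block, as an assumption, the counts were 25 in shNC (0.151%, 5 higher, 20 lower), 106 in shARID1A (0.64%, 62 higher, 44 lower) and 124 for the difference (0.748%, 99 higher, 25 lower). Without the second shNC E2 library or the second shARID1A DMSO library 6 were called for the difference, and without the second shNC DMSO library 33. All 19 remained among the 124, and 0 of the 19 were called for E2 plus fulvestrant against E2. All 18 genes with a higher difference had negative effects in shNC and positive effects in shARID1A, and 2 of the 19 genes had an unadjusted p under 0.05 in the common effect. These genes were selected on the difference, and common effects lay near 0, so that opposite signs were largely fixed by the selection. With the block 8 genes were called in both arms, and all 8 were opposite in sign.

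Ribosomal protein genes made up 6 of the 18, a group chosen after its values were seen. RPL37 (chromosome 5, 40827805 to 40835314), a protein of the large subunit, had 1163 and 1084 CPM with DMSO and 1029 and 932 CPM with E2 in shNC. In shARID1A it had 1087 and 1114 CPM with DMSO and 1393 and 1380 CPM with E2. Neither arm had overlapping groups, and the directions were opposite: the effect was -0.20 in shNC and 0.33 in shARID1A, a difference of 0.53 (SE 0.0707, adjusted p = 0.000157 in edgeR's test). RPS23, of the small subunit's decoding centre, had 456 and 430.3 CPM with DMSO and 396 and 366 CPM with E2 in shNC, and 430.4 and 414 CPM with DMSO and 502 and 497 CPM with E2 in shARID1A (difference 0.46, SE 0.0763). The others were RPL38 (0.43), RPL37A (0.37), RPS21 (0.36) and RPL35A (0.34). Of the 77 cytosolic ribosomal protein genes, 10 were above 0 in shNC and 70 in shARID1A, with medians of -0.0778 and 0.0951, beside 0.000906 and 0.00311 for all genes. Without any single library the shNC median stayed between -0.116 and -0.0333 and the shARID1A median between 0.0837 and 0.104.

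Summed over the 77 genes, ribosomal protein reads were 4.46% and 4.23% of scaled counts with DMSO and 4.23% and 4.02% with E2 in shNC. They were 4.5% and 4.64% with DMSO and 4.85% and 4.92% with E2 in shARID1A. The first E2 library and the second DMSO library of shNC were level. With fulvestrant added the share was 3.97% and 4.11% in shNC and 4.72% and 4.4% in shARID1A, where the libraries straddled the DMSO values.

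**Figure D4:**
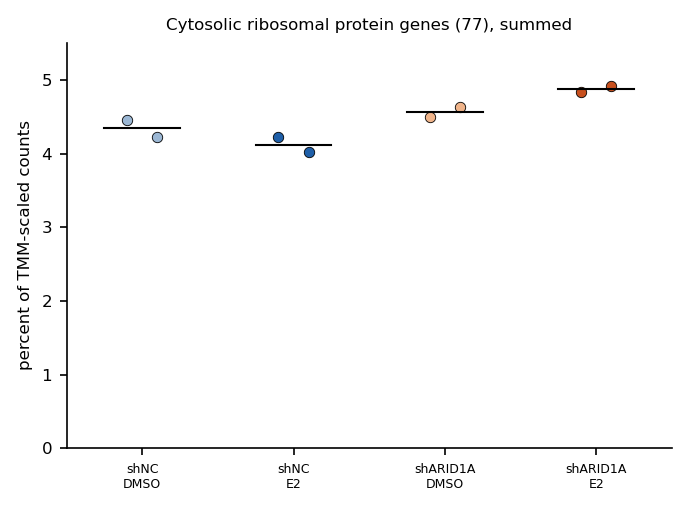
Summed share of scaled counts of the 77 cytosolic ribosomal protein genes in each library, where points are libraries, lines are group means and the axis starts at 0. The E2 libraries sit at 4.02% to 4.23% in shNC and at 4.85% to 4.92% in shARID1A. The arms differ with DMSO as well, at 4.23% to 4.46% in shNC and 4.5% to 4.64% in shARID1A.

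The other genes of the 19 were of mixed kind. NDUFB1, a subunit of respiratory complex I, had 25.5 ± 0.359 CPM with DMSO and 20.5 ± 1.29 CPM with E2 in shNC, and 21.2 ± 1.19 CPM with DMSO and 28.7 ± 0.887 CPM with E2 in shARID1A (SD, n = 2 each). Its difference between arms was 0.76 (SE 0.149, adjusted p = 0.0217 in edgeR's test). CHCHD10, a protein of the mitochondrial intermembrane space, had 69.6 and 76 CPM with DMSO and 54.6 and 47.9 CPM with E2 in shNC, against 106 and 122 CPM with DMSO and 126 and 131 CPM with E2 in shARID1A. In the fulvestrant libraries CHCHD10 varied more, at 45.7 and 61.1 CPM in shNC and 119.9 and 57.1 CPM in shARID1A. MT-ND3, a complex I subunit encoded in mitochondrial DNA, had a difference of 0.45 (SE 0.0769), while the 13 mitochondrially encoded genes together had a median of -0.0109 in shNC and 0.00227 in shARID1A. RP11-556K13.1 (0.94), RP11-40C6.2 (0.80) and RP11-543P15.1 (0.64) had the other largest differences and carry clone names. GNG5P2 had 0.213 and 0.135 CPM with DMSO and 3.71 and 4.59 CPM with E2 in shNC, and 3.11, 2.13, 1.73 and 3.95 CPM in the DMSO and E2 libraries of shARID1A. In shNC with fulvestrant it had 0.188 and 0 CPM. In shARID1A with fulvestrant it averaged 4.76 CPM (SD 0.497, n = 2), above its means of 2.84 CPM with E2 and 2.62 CPM with DMSO. As a pseudogene its reads are uncertain.

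The median difference between arms fell with exon length among genes without a ribosomal protein symbol. That set still held ribosomal pseudogenes such as RPL39P3 and RPS18P12 and genes with clone names, whose reads are uncertain. The 19 genes, 6 of them ribosomal protein genes, had a median exon length of 859 bases, beside 2664 bases for all tested genes. The 77 ribosomal protein genes, with a median difference of 0.185, had a median length of 2353 bases and were not short by this measure. It counts the bases of all annotated exons of a gene and is not the length of a transcript. Transcript lengths were not measured. Among genes of at least 5 CPM that were not ribosomal protein genes, the 1014 with under 1000 bases had medians of -0.0264 in shNC and 0.0238 in shARID1A. The 4412 with at least 4000 bases had the opposite signs, 0.0116 and -0.0132. With the replicate block the 99 genes with a higher difference had a median length of 1340 bases and the 25 with a lower one 4542 bases, and the latter included the chaperones HSP90AA1 (-0.20) and HSPH1 (-0.29) and the chromosome condensation genes SMC2 (-0.39) and SMC4 (-0.31). The part of length in the result was not tested.

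**Figure D5:**
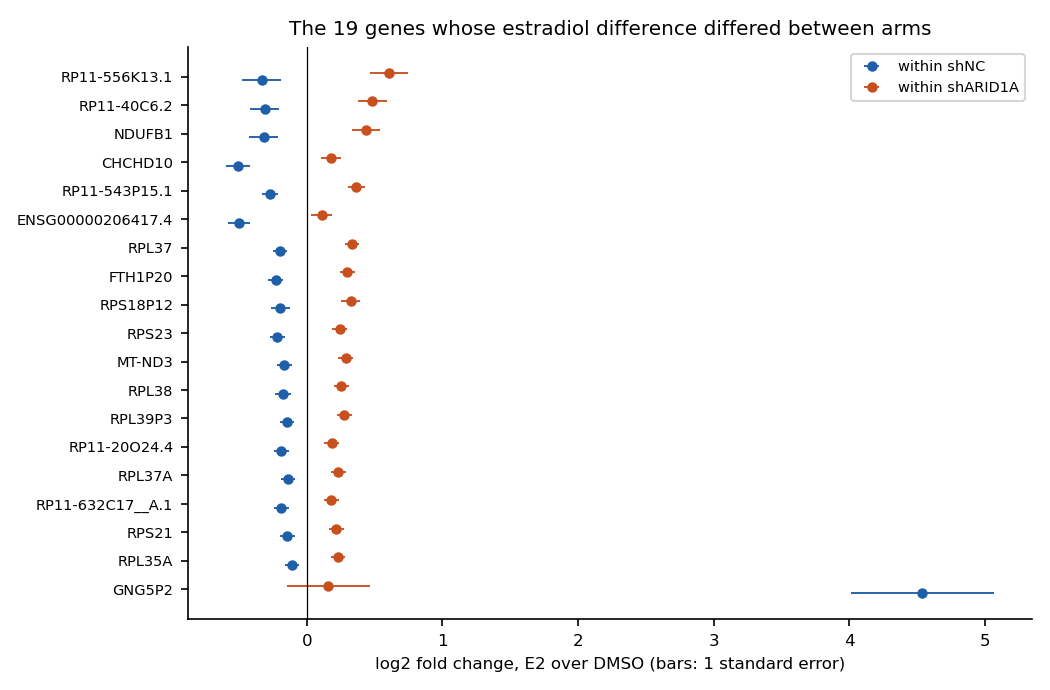
Log2 fold change of E2 over DMSO within shNC (blue) and within shARID1A (orange) for the 19 genes whose effect differed between arms, with bars of 1 standard error. For 18 genes the shNC value is below 0 and the shARID1A value above 0, and GNG5P2 is at 4.54 in shNC and 0.16 in shARID1A. The genes were selected on this difference, which favours opposite signs.

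Sequences around the start sites of genes with a called higher difference are shown. They are from RefSeq on GRCh38.p14, not the hg19 build of the counts, and run from 60 bases before the start to 15 bases from the start on, 5′ to 3′ on the strand of the gene. NDUFB1 and CHCHD10 are the called genes of the naming rule with an entry, and 4 ribosomal protein genes were added after their values were seen. Capitals mark the longest unbroken run of C or T that reaches within 5 bases of the start.
NDUFB1, chr14:92121692-92121766, minus strand: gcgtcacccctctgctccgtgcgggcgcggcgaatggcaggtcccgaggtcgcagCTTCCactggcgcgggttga
CHCHD10, chr22:23767958-23768032, minus strand: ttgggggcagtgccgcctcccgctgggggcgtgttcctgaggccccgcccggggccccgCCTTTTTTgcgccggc
RPS23, chr5:82278340-82278414, minus strand: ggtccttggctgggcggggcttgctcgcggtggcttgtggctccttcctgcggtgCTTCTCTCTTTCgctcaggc
RPL38, chr17:74203618-74203692, plus strand: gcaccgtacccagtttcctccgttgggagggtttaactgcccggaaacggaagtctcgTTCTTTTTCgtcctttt
RPL37A, chr2:216498784-216498858, plus strand: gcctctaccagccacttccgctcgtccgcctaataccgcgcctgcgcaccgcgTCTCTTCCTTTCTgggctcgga
RPS21, chr20:62387043-62387117, plus strand: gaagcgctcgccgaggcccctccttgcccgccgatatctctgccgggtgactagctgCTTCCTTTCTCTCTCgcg

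A pyrimidine run at the start is known in ribosomal protein genes, whose transcripts begin with a C followed by pyrimidines. Of the 62 ribosomal protein genes with an entry, 49 (79%) had a run of at least 7 bases, on the strand of the gene, beside 15.7% of all 27305 promoters. Of the 7 genes with a higher difference and an entry, most are ribosomal protein genes themselves, so that no separate count is drawn from them. The full estrogen response element, GGTCA and TGACC with 3 bases between them, searched on both strands over 300 bases (250 before and 50 from the start on), occurred in 0 of these 7 and in 0 of 21 estrogen response genes with an entry, and in 0.0659% of all promoters. Its half-site, GGTCA or TGACC, which also lies within the full element, occurred in 3 of the 7 and in 9 of the 21, beside 37.7% of all promoters. The AP-1 motif TGANTCA occurred in 0 of the 7, 0 of the 21 and 7.76% of all promoters.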

How the data were processed

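Poly(A) RNA of 12 libraries was sequenced, per the labels' protocols, and 8 were compared. The deposited values are counts of reads per gene, not normalized by the authors. Per the submitters' processing notes, Trim Galore, cutadapt, FastQC and Subread 2.0.0 were used with hg19. Reads were counted over exons with featureCounts 2.0.0, per the file headers, which record no strand or multi-mapping option. Overlapping genes and near-identical copies are therefore uncertain. The series table lacks 27 of the 45320 genes of the single files, and all shared values were equal (0 differing).

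In R 4.3.3, edgeR 4.0.16 (filterByExpr, TMM, glmQLFit with legacy=FALSE, glmQLFTest) fitted arm plus treatment to the 8 libraries. Effects within arms and their difference used a mean per group. E2 plus fulvestrant against E2 used the 8 libraries with E2. P-values were adjusted by Benjamini-Hochberg over all genes and called under 0.05. Totals were 28753202 to 38589497 counts. DESeq2 1.42.0, RLE scaling, other filters, all 12 libraries, legacy dispersion, a test against 1.2-fold, the replicate block and leaving out each library were tried. The statistics were tested on simulated data. The members and lists were chosen with earlier results of these data known.

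Same-numbered DMSO and E2 libraries deviated together (correlation 0.291 in shNC and 0.131 in shARID1A over 10333 genes). There are 4 such pairs but 1 value per arm, since the pairs of an arm mirror each other with 2 libraries per group. The value for E2 and fulvestrant libraries was 0.177 in shNC and -0.183 in shARID1A. The numbers were used as a block in an alternative fit on that weak ground, and the labels give no source for a pairing. Named genes were the called genes with the largest changes (up to 15 each way, or 5 for the difference, at a mean of at least 1 CPM and with a symbol), in each list the 4 lowest adjusted p-values at most, and ARID1A, ESR1, ESR2, PGR, GREB1, ALPP and SGK1. Single genes outside this rule were chosen after their values were seen.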

Additional observations from a re-analysis of the deposited data

Results flagged for a closer look

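The effect of E2 differed between arms, by edgeR's quasi-likelihood test of the difference itself, for 19 genes, given here as the log2 effect in shARID1A minus that in shNC. Protein-coding nuclear genes among them were NDUFB1 (0.755) and CHCHD10 (0.683), and the ribosomal protein genes RPL37 (0.53), RPS23 (0.461), RPL38 (0.429), RPL37A (0.372), RPS21 (0.362) and RPL35A (0.337). The mitochondrially encoded MT-ND3 had 0.451. Genes named as copies of others were FTH1P20 (0.528), RPS18P12 (0.518), RPL39P3 (0.421) and GNG5P2 (-4.38), and their reads are uncertain. ENSG00000206417.4, which a later annotation names H1-10-AS1, had 0.607, and its antisense reads cannot be told from those of the other strand. The remaining genes carry clone names: RP11-556K13.1 (0.938), RP11-40C6.2 (0.796), RP11-543P15.1 (0.635), RP11-20O24.4 (0.373) and RP11-632C17__A.1 (0.369).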

How the results depend on the processing

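The count of genes called over both arms was 0 with DESeq2, RLE scaling, no filter, a mean of at least 5 CPM, legacy dispersion, a test against 1.2-fold and the replicate block. It was 1 with all 12 libraries and 1 with a mean per group, the pseudogene GNG5P2 both times, and 0 to 2 without single libraries. The 2 genes without the second shNC E2 library were ENSG00000196972.6 and ENSG00000259001.2, those without the first shARID1A E2 library were MT1G (log2 3.02) and PPIAP11 (0.97), and those without the second were NDRG1 (-0.32) and NDUFA4L2 (-0.66). Of 2133 values for 127 named genes, 2120 kept direction and call, 2 passed the threshold and 11 uncalled values in 9 genes changed sign.

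Within shNC, where 3 genes were called, the count was 6 without a filter, 1 with all 12 libraries, 25 with the replicate block and 3 to 10 without single libraries. Within shARID1A (7) it was 14 with DESeq2, 14 without a filter, 4 with all 12 libraries, 106 with the replicate block and 1 to 10 without single libraries. For the difference between arms (19) it was 12 at a mean of at least 5 CPM, 5 with all 12 libraries, 124 with the replicate block, 21 with DESeq2, and from 6 (without shNC E2 replicate 2) to 33 (without shNC DMSO replicate 2). Of 284 values for the 19 genes, 181 kept the call, 103 lost it and 0 reversed.

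For E2 plus fulvestrant against E2 (33) it was 445 with DESeq2, 14 without a filter, 73 at a mean of at least 5 CPM, 11 with all 12 libraries, 216 with the replicate block (there the numbers did not pair the libraries of both arms), 7 with legacy dispersion, and from 1 (without shNC E2 replicate 1) to 493 (without shNC E2 replicate 2). The causes were not tested. The common median of the ribosomal protein genes, 0.00805, was -0.0144 without shARID1A DMSO replicate 1 and 0.0424 without shNC DMSO replicate 1. The 2 libraries per group and low counts limit genes under 5 CPM, where the median standard error was 0.325.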
